A study of Mus musculus with 5 samples.

Results

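The intergenic RXR regions described here are stretches of chromatin bound by RXRα that lie outside the annotated transcripts of the GENCODE basic set but within 100 kb of the start of a protein-coding gene. Peaks of 2 wild-type libraries, WT A and WT G, were merged where they overlapped by 1 bp or more, and 3423 merged regions held a peak of both. Of these, 937 (27.4%, 95% exact binomial interval 25.9 to 28.9) had a midpoint outside all transcripts of the GENCODE basic set for mm10, outside promoters (1 kb before a transcription start site, TSS, to 100 bp after it) and outside transcript ends, with the nearest protein-coding TSS at 100 kb or less. The 937 regions covered 622.9 kb. With the full GENCODE set, which holds more transcripts, 894 regions qualified, and 880 of the 937 and 8 of the 10 strongest were among them. Asking that WT A and WT G peaks overlap by at least 50% of both left 454 regions, with 7 of the 10 strongest. Without WT A, which widens the set to all peaks of WT G, the number was 2366. Another 1740 shared regions were intronic, 370 lay in promoters, 118 at transcript ends, 117 in exons and 141 in intergenic sequence farther than 100 kb.

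RXRα was profiled by HT-ChIPmentation, a chromatin immunoprecipitation in which the bound DNA is tagmented on the beads, in alveolar macrophages (AMs) sorted from bronchoalveolar lavage. The mice of both genotypes were 9 weeks old and on the C57BL/6J background, per the study's text. WT A and WT G came from CD11cCre- Rxrabfl/fl mice, which carry floxed Rxra and Rxrb alleles without Cre, and KO A and KO G came from CD11cCre+ Rxrabfl/fl mice, for which the methods name floxed littermates as controls. All 4 libraries thus shared the floxed alleles. Cre is driven by the Cd11c promoter, so it is also active in other CD11c+ cells such as dendritic cells, and the share of undeleted AMs in the KO libraries was not analysed here.

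RXRs are nuclear receptors that bind DNA as heterodimers with partners such as PPARγ, LXR and the retinoic acid receptors, or as homodimers. Each receptor of the pair contacts a hexamer of its own, and the spacing between the hexamers in a direct repeat (DR) favours particular partners, with a spacing of 1 base (DR1) used by PPAR-RXR and RXR-RXR, 4 bases by LXR-RXR and 5 bases by RAR-RXR. AMs clear surfactant lipids, and PPARγ and LXR targets of fat storage and sterol export are among their best known nuclear receptor genes. Regions outside genes can act as enhancers of genes at a distance, and the nearest gene is a label of position that need not be the regulated gene.

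The sequences closest to a DR1 element are shown first, because this was the receptor repeat most common at the summits of the intergenic regions. The consensus searched was AGGTCANAGGTCA, on both strands, in the 101 bp centred on the summit of the strongest WT peak. Each line gives the region by its nearest gene and its distance from that gene's TSS (minus, upstream), then the mm10 position and the strand that is written. Capitals mark the DR1 match, and the 7 regions shown have 1 mismatch each.
Enc1 +54.4 kb (chr13:97295572-97295632, plus strand): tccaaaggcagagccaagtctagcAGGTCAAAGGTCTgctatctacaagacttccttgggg
Themis2 -9.51 kb (chr4:132806181-132806241, minus strand): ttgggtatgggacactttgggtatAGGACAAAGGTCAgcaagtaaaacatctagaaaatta
Ddhd1 -81.7 kb (chr14:45739869-45739929, plus strand): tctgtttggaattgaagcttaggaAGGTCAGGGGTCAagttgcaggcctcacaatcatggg
Plk3 -1.91 kb (chr4:117136123-117136183, minus strand): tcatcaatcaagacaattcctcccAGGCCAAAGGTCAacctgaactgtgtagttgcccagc
Bhlhe40 -89.9 kb (chr6:108570829-108570889, plus strand): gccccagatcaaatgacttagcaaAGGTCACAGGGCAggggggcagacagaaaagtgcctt
Abhd17c -45.6 kb (chr7:84197600-84197660, minus strand): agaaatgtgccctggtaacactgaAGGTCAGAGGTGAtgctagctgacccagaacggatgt
Mdm1 -45.3 kb (chr10:118096326-118096386, plus strand): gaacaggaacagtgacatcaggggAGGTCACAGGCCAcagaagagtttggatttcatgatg
Counted from 1 at the 5′ end of the consensus, the mismatches were T11C near Mdm1, A13T near Enc1, T4A near Themis2, A8G near Ddhd1, T4C near Plk3, T11G near Bhlhe40 and C12G near Abhd17c. In each of them 1 of the hexamers was thus without a mismatch. Bhlhe40 encodes a basic helix-loop-helix transcription factor of AMs.

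A second set shows the intergenic regions nearest to genes of the lists used below (transcription factors, lipid, retinoid, niche signal and AM genes) that hold a DR1 match. Of 54 intergenic regions nearest to a list gene, 7 held one, beside 68 of all 937 (7.26%), and these were looked up after their values were seen. Bhlhe40 is already shown above. The other 6 have 2 mismatches each, and capitals again mark the match.
Pdk4 -13.7 kb (chr6:5509878-5509950, plus strand): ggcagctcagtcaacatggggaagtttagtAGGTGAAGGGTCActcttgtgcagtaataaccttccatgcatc
Klf6 +14.3 kb (chr13:5875685-5875757, plus strand): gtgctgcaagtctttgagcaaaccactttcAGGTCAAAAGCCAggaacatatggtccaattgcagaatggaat
Plin2 -20.6 kb (chr4:86690242-86690314, plus strand): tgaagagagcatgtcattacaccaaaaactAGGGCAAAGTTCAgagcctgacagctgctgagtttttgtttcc
Plin2 -2.27 kb (chr4:86671961-86672033, minus strand): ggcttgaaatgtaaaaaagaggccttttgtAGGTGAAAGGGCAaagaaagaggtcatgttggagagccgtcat
Tgfbr2 +97.5 kb (chr9:116077557-116077629, minus strand): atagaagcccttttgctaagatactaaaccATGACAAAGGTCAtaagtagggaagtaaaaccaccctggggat
Il1rn -18.6 kb (chr2:24318204-24318276, plus strand): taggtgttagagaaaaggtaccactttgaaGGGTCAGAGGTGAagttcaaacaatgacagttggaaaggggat
The mismatches were C5G and A8G near Pdk4, G9A and T11C at Klf6, T4G and G10T at Plin2 -20.6 kb, C5G and T11G at Plin2 -2.27 kb, G2T and T4A at Tgfbr2, and A1G and C12G at Il1rn. Pdk4, which encodes the kinase that restrains pyruvate entry into the citric acid cycle, had a further DR1 match in the same summit window.

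For contrast, the summit windows of 2 of the 3 strongest intergenic regions are printed whole, with capitals for any match to the receptor, C/EBP, PU.1, RUNX or AP-1 elements searched.
Tgm2 -28.9 kb (chr2:158175647-158175747, plus strand): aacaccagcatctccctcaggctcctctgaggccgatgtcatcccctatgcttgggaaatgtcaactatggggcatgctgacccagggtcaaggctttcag
Trim25 +25.1 kb (chr11:89024377-89024477, plus strand): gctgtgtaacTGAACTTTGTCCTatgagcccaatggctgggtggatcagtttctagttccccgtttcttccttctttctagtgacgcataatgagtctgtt
The window upstream of Tgm2 held no match to any of them, and the window near Trim25 held 1 DR1 match with the mismatches T4A and G10T.

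WT A had 4751 peaks and WT G 9766, while KO A had 83 and KO G 208. The deposited lists give no read totals, but the number of fragments at each summit could be solved from its fold enrichment and p-value (4750 of 4751 peaks in WT A and all peaks in the other lists). The median WT peak rested on 16 fragments (A) and 8 (G), the median KO peak on 14 (A) and 12 (G), and the weakest peaks on 10 and 5 (WT) and 10 and 8 (KO). The genome-wide background per summit, which reflects depth and fragment length together, was 1.25 (A) and 0.551 (G) for WT. It was 0.966 (A) and 0.936 (G) for KO, so that both KO libraries lay between the WT libraries on this measure. The values of WT A were solved with pileups scaled by 0.884, and those of the other lists without scaling. The 1.25 of WT A is thus in scaled units, while its counts of fragments are unscaled. WT A peaks were narrower than WT G peaks, with medians of 228 and 323 bp.

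The intergenic regions were moderately enriched in both WT libraries. The fold enrichment at the summit, the ratio of ChIP to local background, had a median of 7.11 in WT A (range 3.34 to 22.0) and 7.69 in WT G (3.66 to 23.2). The median −log10 q, the peak caller's adjusted significance, was 8.06 in WT A and 8.04 in WT G. Behind these values stood a median of 18 fragments in WT A and 11 in WT G. Across all 3423 shared regions the fold enrichment had medians of 6.72 and 7.60, and across the 370 promoter regions 6.72 and 7.09. The merged intergenic regions had a median width of 575 bp, against 574 bp for all shared regions.

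The WT libraries ranked the intergenic regions alike in part. Over the 937 regions the −log10 q of WT A and WT G had a Pearson r of 0.691 and a Spearman rho of 0.563, a description across regions of 1 library pair. Summits of the 2 lists lay a median of 90 bp apart, with quartiles of 44 and 160 bp. More than 1 peak of the list fell within the region in 114 intergenic regions for WT A and in 25 for WT G.

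**Figure D1:**
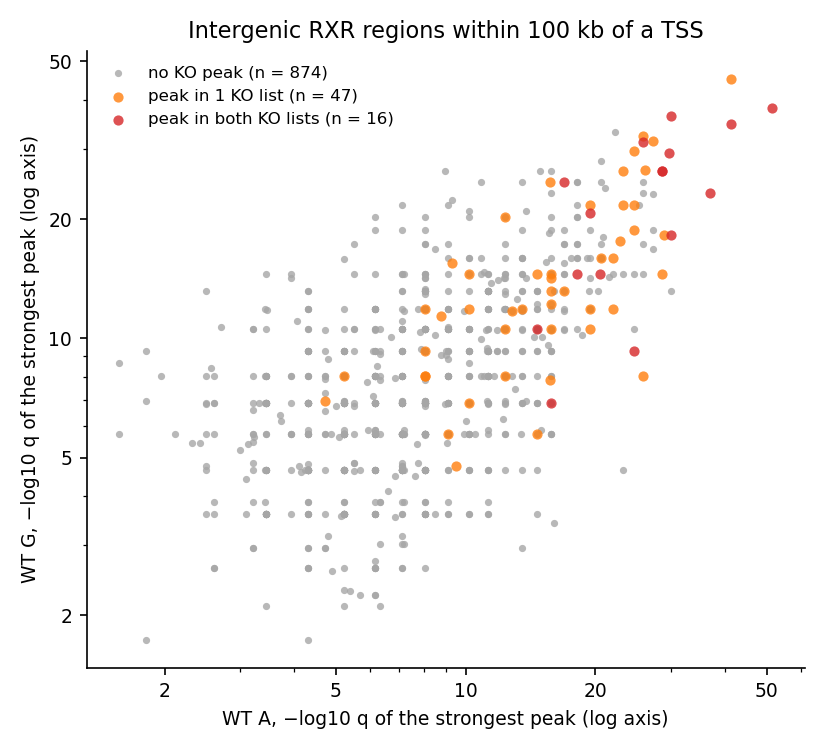
Strength of the 937 intergenic regions in WT A (x axis) and WT G (y axis), as the −log10 q of the strongest peak on log axes. Each point is 1 region, and colour shows a peak in no KO list (874 regions), in 1 (47) or in both (16); regions with a KO peak gather at the upper right.

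The strongest 3 intergenic regions had Tgm2, Dhrs3 and Trim25 as their nearest protein-coding genes. Tgm2, a transglutaminase known to be induced by retinoids, had a region at -28.9 kb (chr2:158174535-158176075), and its −log10 q was 41.3 for WT A and 45.2 for WT G. The region at chr4:144960361-144962258, 68.2 kb downstream of the TSS of Dhrs3, which encodes a reductase of retinaldehyde, reached 51.5 and 38.0. A region 25.1 kb downstream of the TSS of Trim25, a ubiquitin ligase of antiviral signalling, reached 41.3 and 34.7. At Tgm2 and Dhrs3 a TSS of another gene type lay nearer (1700060C20Rik and Gm38074). The same held for other regions named below, among them Hilpda -26.2 kb, Gm20403, Axin2, Cebpb +46.3 kb and Tgfbr2 +97.5 kb. The regions near Tgm2, Dhrs3 and Trim25 ranked highest over both lists among the intergenic regions. Their fold enrichments were 18.9 and 23.2 for Tgm2, 22.0 and 19.9 for Dhrs3, and 18.9 and 19.3 for Trim25, in WT A and WT G.

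The next 7 by the same ranking were regions near Ccdc97, Hilpda, Cd164, Atp13a3, Pdk4, Abcg1 and Gm20403. Hilpda encodes an inhibitor of lipid droplet lipolysis, and its region at -26.2 kb had −log10 q values of 29.6 and 29.4 in the same order. Pdk4 at -13.7 kb had 28.6 and 26.4. Abcg1, the sterol exporter, had 25.9 and 32.5 at a region of 3277 bp, the widest of the 937. The other 4 lay between 25.9 and 29.97 in WT A and between 26.4 and 36.4 in WT G. All 10 were strong in both libraries, as the ranking asks for.

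Few intergenic regions kept a peak when Rxra and Rxrb were targeted. A peak of KO A or KO G overlapped 63 of 937 intergenic regions (6.72%, 95% exact binomial interval 5.20 to 8.52), beside 5.87% of all 3423 shared regions. KO A had a peak at 19 (2.03%, 1.23 to 3.15; all shared regions 2.16%) and KO G at 60 (6.40%, 4.92 to 8.17; all shared regions 5.35%). Both lists had one at 16 (1.71%, 0.979 to 2.76; all shared regions 1.64%). The shares of intergenic regions were near those of all shared regions in each case. The share with a KO peak depended on how the regions were defined, at 2.83% of the 2366 regions without WT A, 5.11% of the 1291 without WT G and 9.03% of the 454 whose WT peaks overlapped by at least 50%. Promoter regions had a KO peak in 4.86% (2.91 to 7.58) and intronic regions in 5.57% (4.54 to 6.76), with intervals that overlap that of the intergenic regions.

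KO peaks lay where the WT signal was strongest. When all shared regions were ranked by both WT lists and cut into 4 groups of like size, the intergenic regions of the strongest group had a KO peak in 50 of 260 (19.2%, 14.6 to 24.6). The share was 10 of 228 in the next group (4.39%, 2.12 to 7.92) and 3 of 214 in the third group (1.40%, 0.290 to 4.04). In the weakest group it was 0 of 235, which allows a share of up to 1.56% by the exact binomial interval. Over all shared regions the shares in the same groups were 19.2%, 3.04%, 0.819% and 0.467%, each within the interval of the intergenic regions and thus near them. The median −log10 q of intergenic regions with a KO peak was 18.2 in WT A and 14.5 in WT G, against 7.19 and 6.94 for those without. The intervals cover counting error over regions only.

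**Figure D2:**
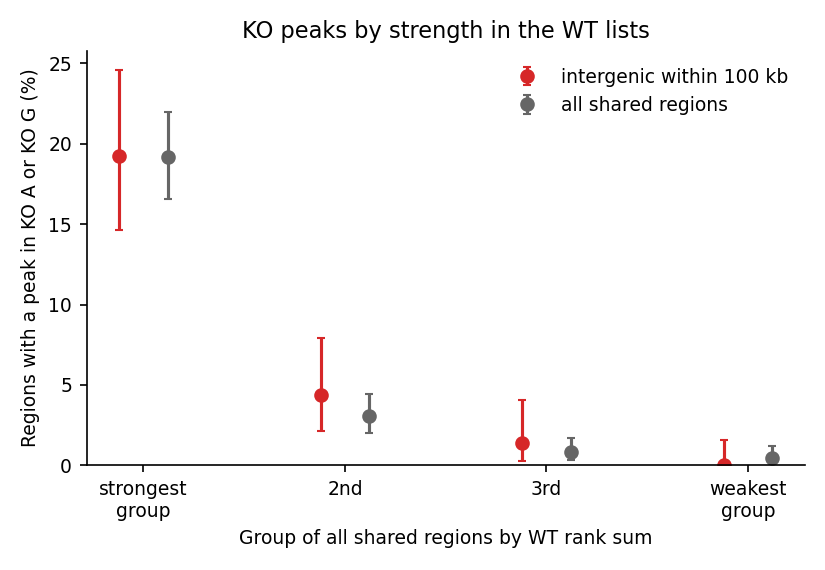
Share of regions with a peak in KO A or KO G (y axis, %) by group of WT strength (x axis), for intergenic regions within 100 kb (red) and all shared regions (grey). Points are shares and bars 95% exact binomial intervals; the red share falls from 19.2% in the strongest group to 0 of 235 in the weakest.

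Most intergenic regions reached, in both WT libraries, the lowest enrichment that was called in the KO lists. At sites of genome-wide background the lowest fold enrichment that was called was 5.60 for KO A and 4.65 for KO G. Of the 937 intergenic regions, 674 reached 5.60 in both WT libraries, and 19 of these had a KO A peak (2.82%, 1.71 to 4.37). For KO G, 870 reached 4.65 in both WT libraries and 60 of these had a KO G peak (6.90%, 5.30 to 8.79). Over all shared regions under the same limits the shares were 2.81% for KO A and 5.57% for KO G. Regions were chosen by their WT peaks and filtered here again on WT values, so these shares are a description. The scale of fold enrichment also shifts with the background, which differed between libraries. Reaching a limit in WT thus does not mean that the site could have been called in the KO list. A region without a KO peak was below the calling threshold of that list, which is not an absence of signal.

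Where a KO peak was called, its enrichment was mostly lower than in the WT libraries. The 19 peaks of KO A had a median fold enrichment of 7.63, and the same regions had 13.4 in WT A and 12.3 in WT G. In 17 of the 19 the KO A value was below both WT values. The 60 peaks of KO G had a median of 6.70, and the same regions had 11.6 in WT A and 11.0 in WT G, with KO G below both WT values in 55 of 60. Gk, which encodes glycerol kinase, had the 1 region where a KO value exceeded both WT values, with 7.75 in KO G, 7.11 in WT A and 7.74 in WT G at -28.3 kb. The regions were chosen by a peak in both WT lists, which favours higher WT values, and KO values were conditional on a call. These values are thus a description. The counts were not made over all shared regions and are not read as particular to the intergenic regions.

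All 10 of the strongest intergenic regions had a KO G peak and 7 had a KO A peak. In the strongest WT group, 17.3% of all shared regions had a KO G peak and 7.83% a KO A peak. The shares of intergenic regions there were 18.1% and 6.92%. The count was not made for the 10 strongest of all shared regions and is not read as particular to the intergenic regions. Tgm2 -28.9 kb had a fold enrichment of 7.23 in KO G and no KO A peak. Dhrs3 +68.2 kb had 10.2 for KO A and 8.78 for KO G, and Trim25 +25.1 kb had 12.2 and 10.8. At Gm20403 -6.78 kb KO A reached 13.7, close to the 14.2 of WT A, while KO G was at 8.78 and WT G at 18.1. At each of the 10, the KO values that were called lay below both WT values, an order that the choice of the 10 by their WT values favours.

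The 10 regions with the highest sum of −log10 q over the KO lists were Axin2 +88.7 kb, Trim25, Gm20403, Atp13a3, Dhrs3, Man2a1 -8.38 kb, Ccdc97, Pdk4, Cebpb +46.3 kb and Smap2 -6.78 kb. Axin2, a negative regulator of Wnt signalling, headed them with 20.3 for KO A and 16.4 for KO G. Its region at chr11:109011605-109012093 had a local background 4.78 times the genome-wide level, the highest of the 937. The fold enrichment there was 6.71 and 10.2 for the WT pair and 8.19 and 6.20 for the KO pair (A, then G), so that WT and KO overlapped. Only 6 of the 937 regions had a local background over 3 times the genome-wide level, and 1 of them had a KO peak.

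The 16 regions with a peak in both KO lists also included regions near Plin2, Pdk4 and Hilpda, genes of lipid droplets and metabolism. They are given here for their function. The share of such genes among the 16 was not counted, and no theme is read from them. Plin2, the lipid droplet coat protein, had fold enrichments at -20.6 kb of 15.3 and 12.3 (WT A, WT G) and of 7.12 and 7.23 (KO A, KO G). Pdk4 -13.7 kb had 15.0 and 16.1, and then 7.12 and 9.30. Hilpda -26.2 kb had 15.1 and 17.2, and then 6.03 and 7.65. WT and KO values did not overlap at these 3 regions, all in the strongest WT group, and the choice by WT peaks favours this order. At Ttpal -18.4 kb they did, with 10.2 and 7.09 for WT, and 7.12 and 7.23 for KO. The others of the 16 were near Snx27, Map3k8 and Dnttip2.

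**Figure D3:**
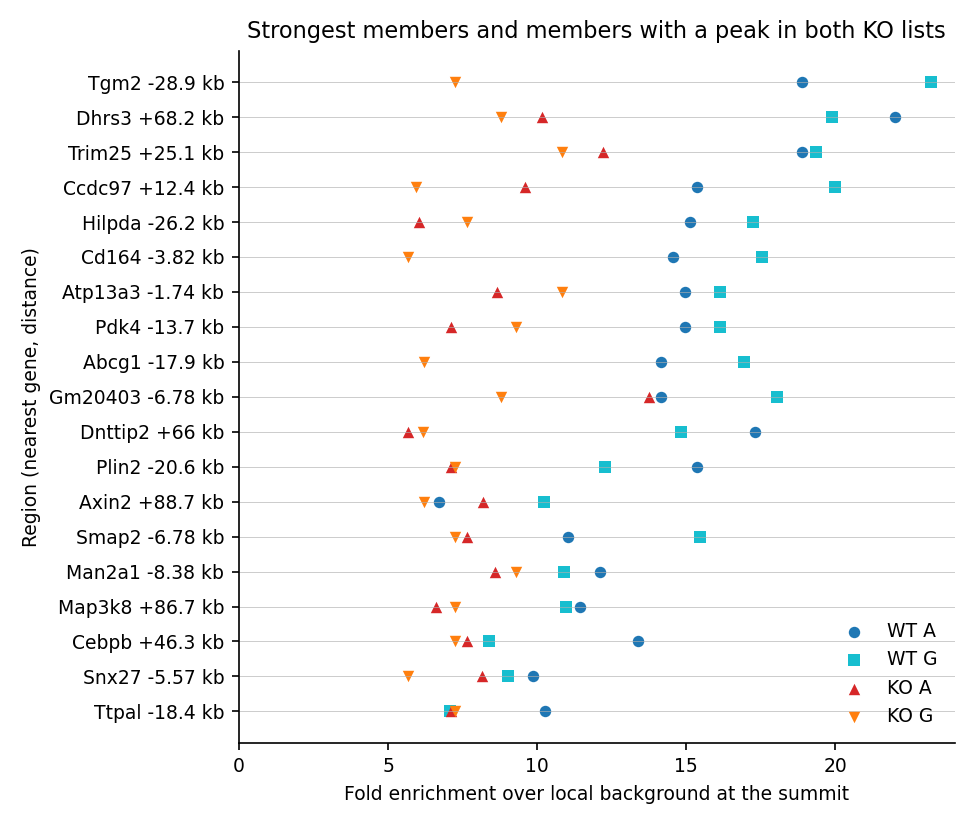
Fold enrichment at the summit (x axis) in WT A, WT G, KO A and KO G for the 19 intergenic regions that are among the 10 strongest or have a peak in both KO lists (y axis, strongest at the top). Each point is 1 library and a missing KO point means no called peak; KO points lie left of both WT points except at Axin2 and Ttpal.

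Counted per library without merging, intergenic sequence within 100 kb held 1291 (A) and 2366 (G) WT peaks, and 20 (A) and 69 (G) KO peaks. WT averaged 1828.5 ± 760 (SD, n = 2) and KO 44.5 ± 34.6 (SD, n = 2), a 41.1-fold difference, which was 26.5-fold without KO A and 91.4-fold without KO G. The WT and KO libraries did not overlap, and the exact two-sided permutation test over the 4 libraries gave p = 0.333, the smallest value that 2 against 2 can give. As a share of each list these peaks made up 27.2% (25.9 to 28.5) of WT A and 24.2% (23.4 to 25.1) of WT G. They made up 24.1% (15.4 to 34.7) of KO A and 33.2% (26.8 to 40.0) of KO G. Of the 20 in KO A, 19 overlapped peaks of both WT lists, and of the 69 in KO G, 63 did. In KO G, 2 of the 69 overlapped no WT peak. Whether a library holds 1 animal or a pool is not given in the sources used here, and the p-value reflects only the spread between these libraries.

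WT G, the longer list, held most intergenic peaks of WT A. Of the 1291 intergenic peaks in WT A, 83.5% (81.4 to 85.5) overlapped a WT G peak, and of the 2366 in WT G, 40.8% (38.8 to 42.8) overlapped a WT A peak. For promoter peaks the shares were 81.9% (78.3 to 85.1) and 24.6% (22.5 to 26.9). The second interval lies below that of the intergenic peaks, a difference between classes within 1 library pair for which no test over samples was possible.

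The intergenic regions lay a median of 19.2 kb from the nearest protein-coding TSS, with quartiles of 7.63 and 45.2 kb. Within 5 kb there were 160 regions, from 5 to 10 kb 128, from 10 to 25 kb 257, from 25 to 50 kb 200 and from 50 to 100 kb 192. Upstream of the nearest TSS lay 695 of 937 (74.2%, 71.2 to 76.9), and the share fell from 95.6% within 5 kb to 56.2% beyond 50 kb. The rule itself shapes this order, since a region downstream of a TSS has to lie past the end of the gene to count as intergenic. In 425 of 937 (45.4%, 42.1 to 48.6) the nearest TSS of any gene type was not protein-coding, with 140 processed pseudogenes and 122 long intergenic non-coding RNAs as the leading types.

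The share with a KO peak was 4.38% (1.78 to 8.81) within 5 kb and 7.29% (4.04 to 11.9) beyond 50 kb. The share with a DR1 match was 7.50% (3.94 to 12.7) and 6.25% (3.27 to 10.7) in the same bins. The median −log10 q in WT A was 7.14 within 5 kb and 8.06 in each farther bin, and in WT G it was 8.04 within 5 kb and 6.94 beyond 50 kb. The share with a C/EBP match varied from 6.25% (5 to 10 kb) to 14.8% (10 to 25 kb), with 11.9% within 5 kb, 12.5% from 25 to 50 kb and 7.81% beyond 50 kb. The intervals of the KO and DR1 shares overlapped between the nearest and the farthest bin, and no test was made.

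Just inside the distance limit were Gm826 at 98.9 kb, Bcas1 at 98.0 kb and Tgfbr2 at 97.5 kb, with −log10 q values of 8.06, 4.31 and 10.2 in WT A and 5.73, 4.64 and 6.88 in WT G. Just outside were Mitf at 100.02 kb, Tmem30b at 100.7 kb and Trib1 at 102.3 kb, with 5.22, 9.11 and 4.47 in WT A and 4.77, 5.73 and 3.27 in WT G. None of the 6 had a KO peak.

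The 937 regions were nearest to 677 protein-coding genes, 3.09% of the 21924 in the annotation. A single region was found at 504 genes, 2 or more at 173, 3 or more at 49 and 4 or more at 21. For 453 of the 677 genes these were the only shared RXR regions, while 165 also had an intronic region and 64 a promoter region. Of the 937 regions, 334 lay within 12.5 kb of another intergenic region, and 12 runs of 4 or more were found. Chromosome 19 had the most regions per length, 0.667 per Mb, and among chromosomes with a region the X chromosome had the fewest, 0.0585 per Mb.

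Cebpb, which encodes the myeloid transcription factor C/EBPβ, had 7 intergenic regions between 46.3 and 84.3 kb downstream of its TSS, all within 38.7 kb at chr2:167734898-167773611. Their −log10 q ranged from 3.47 to 24.6 in WT A and from 5.73 to 14.2 in WT G. The nearest of them, +46.3 kb, had fold enrichments of 13.4 and 8.38 (WT A, WT G) against 7.63 and 7.23 (KO A, KO G), values that do not overlap at a region chosen by its WT peaks. The farthest, +84.3 kb, had 10.2, 10.5 and 5.68 in WT A, WT G and KO G. The other 5 had no KO peak, and +53.7 kb, with 11.0 and 9.67 in the WT libraries, held a DR4 match.

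Ctsd, the lysosomal protease cathepsin D, also had 7, all between -16.8 and -2.38 kb at chr7:142390300-142405123. The strongest, -11.3 kb, had −log10 q values of 15.8 for WT A and 10.5 for WT G, and was the only 1 of the 7 with a KO peak, with 4.15 in KO G. The region at -10.3 kb held a DR1 match and had 11.8 and 9.26. The weakest, -16.8 kb, had 4.31 and 2.95. These regions are neighbours in 1 locus and are not independent of each other.

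Cd44, the hyaluronan receptor, had 7 regions between -85.7 and -40.7 kb and no KO peak at any of them. The strongest pair, -40.7 and -42.3 kb, had −log10 q values of 18.2 and 15.8 in WT A and 20.3 and 26.4 in WT G. Neither DR1 nor C/EBP matches were found in the 7 summit windows. Ccr1, a chemokine receptor, had 6 regions from 27.1 to 44.7 kb downstream, the strongest with 15.8 and 20.3, and none had a KO peak.

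Pag1, an adaptor of Src family kinase signalling, had 6 regions, and B4galt5, which makes lactosylceramide, Hs6st1, a heparan sulfate sulfotransferase, and Klf6 had 5 each, as did Retreg1. The best −log10 q values were 15.8 in WT A and 12.2 in WT G at Pag1, 8.06 and 10.5 at B4galt5, and 7.14 and 8.04 at Hs6st1. None of the 16 regions at these 3 genes had a KO peak. Retreg1, a receptor for autophagy of the endoplasmic reticulum, had best values of 12.4 and 20.3, both at -14.5 kb, where KO G had a peak with 5.20.

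The shares of list genes below stand beside the 3.09% of all protein-coding genes that were nearest to an intergenic region, and the lists were chosen with earlier results of these data known. Among transcription factors of myeloid cells and AMs, 8 of 24 list genes were nearest to an intergenic region (33.3%, 15.6 to 55.3), with 21 regions in all. Klf6, a Krüppel-like factor, had 5 of them. Klf6 +14.3 kb had −log10 q values of 23.3 and 21.8 in the WT lists (A, then G) and 3.16 in KO G, and its summit window held DR1, C/EBP and PU.1 matches. Klf2 -1.40 kb had 12.4 and 15.9, and Runx1 -26.1 kb had 8.77 and 9.07, both without a KO peak. The others were Cebpb, Cebpa, Bhlhe40, Tfec and Atf3.

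Among LXR and cholesterol genes, 4 of 16 had an intergenic region (25%, 7.27 to 52.4). Abcg1 -17.9 kb was the strongest, with fold enrichments of 14.2 and 16.9 in the WT lists (A, then G) and 6.20 in KO G. Abca1, the other main sterol exporter, had 6.32 and 8.38 at -68.0 kb. Smpdl3a, an acid sphingomyelinase-like phosphodiesterase, had 6.49 and 5.64 at +41.4 kb. Scd1, which desaturates fatty acids, had 5.54 and 7.09 at +18.2 kb and 5.15 and 5.16 at +19.0 kb. No KO peak was called at Abca1, Smpdl3a or Scd1.

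Among PPAR and fatty acid genes, 5 of 24 had one (20.8%, 7.13 to 42.2), with 8 regions. Besides the regions at Hilpda -26.2 kb, Pdk4 and Plin2 -20.6 kb, Plin2 -2.27 kb had a fold enrichment of 9.85 for WT A and 10.3 for WT G. Hilpda -1.31 kb had 6.52 and 8.38 in the WT lists (A, then G) and 6.72 in KO G, so that the KO value lay between the WT values. Lpl, which releases fatty acids from triglycerides, had 9.47 and 11.0 at +34.3 kb and 7.11 and 6.45 at +73.7 kb, neither with a KO peak. Fabp1 was the fifth gene.

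Retinoid genes had an intergenic region in 2 of 18 (11.1%, 1.38 to 34.7), Tgm2 and Dhrs3, and these were the nearest genes of the strongest 2 regions of all 937. Tgm2 had 3 regions, and its other two had fold enrichments of 7.89 and 9.03 at -3.37 kb and 5.93 and 7.09 at -20.4 kb, without a KO peak. Among genes of niche signals (GM-CSF, TGFβ and Notch), 3 of 24 had one (12.5%, 2.66 to 32.4). Skil, a co-repressor of SMADs, had 8.68 in WT A and 10.3 in WT G at -1.20 kb, and the receptor gene Notch2 had the same values at -19.7 kb and 4.76 and 4.51 at -19.0 kb. Tgfbr2, a TGFβ receptor subunit, had 8.29 and 7.09 at +97.5 kb and 5.34 and 7.09 at -2.88 kb.

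Among AM surface and core genes, 9 of 26 had an intergenic region (34.6%, 17.2 to 55.7). Chil3, a chitinase-like protein abundant in AMs, had −log10 q values of 25.2 for WT A and 21.7 for WT G at -2.97 kb. Krt19 -3.20 kb had 8.06 and 17.3, and the scavenger receptor gene Marco had 8.49 and 16.8 at -19.4 kb. Spp1, which encodes osteopontin, had 3 regions, among them -8.86 kb with 11.3 and 5.87. None of the regions of these 4 genes had a KO peak. Of the other 5 genes, Ctsk, Il1rn, Atp6v0d2 and Fcgr1 had none either, while Tlr2, a receptor for bacterial lipoproteins, had 9.11 and 5.73 for WT and 2.24 in KO G at -3.36 kb. Of 16 genes that mark other cells of the lung and blood, 0 had an intergenic region (upper limit 20.6%) and 3 had a shared region of any class. A shared region of any class was found at 15 of 24 transcription factor, 8 of 16 LXR and 19 of 24 PPAR list genes. It was found at 3 of 18 retinoid, 6 of 24 niche signal and 19 of 26 AM list genes, and at 1933 of all 21924 protein-coding genes. The list of other cells was thus not free of RXR regions. The lists hold small numbers, and no set was tested.

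At the summits, DR1 stood out among the receptor elements. A DR1 match with at most 2 mismatches was found in 68 of 937 summit windows (7.26%, 5.68 to 9.11), against 34 of 1874 windows centred 500 bp to either side (1.81%, 1.26 to 2.53), a ratio of 4.0. Over all shared regions the share was 6.34% at summits and 1.55% in the flanks. The share at intergenic summits depended on the settings. It was 4.23% of the 2366 regions without WT A, 12.4% with 100 bp on each side of the summit and 1.17% with at most 1 mismatch. Of the 68 matches, 0 had no mismatch, 11 had 1 and 57 had 2, and their median distance from the summit was 22 bp. A scrambled consensus of the same composition, ACTGAGNACTGAG, matched 1.81% (1.06 to 2.89) of summit windows and 1.55% (1.04 to 2.21) of flanks, and 1.69% of all shared summits.

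Other spacings were less frequent. DR5 (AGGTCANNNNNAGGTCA) was found in 2.56% (1.65 to 3.79) of intergenic summits against 0.907% (0.529 to 1.45) of flanks, and in 2.57% of all shared summits. DR4 (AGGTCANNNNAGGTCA) was found in 2.35% (1.48 to 3.53) against 0.961% (0.570 to 1.51), and in 1.90% of all shared summits. DR3 (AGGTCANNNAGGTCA) was found in 2.35% (1.48 to 3.53) against 1.23% (0.780 to 1.84), with overlapping intervals, and in 2.02% of all shared summits. DR0 (AGGTCAAGGTCA) and DR2 (AGGTCANNAGGTCA) were each found in 2.13% (1.31 to 3.28) against 1.92% and 1.55%, and in 2.02% and 2.54% of all shared summits. The inverted repeat without spacing (AGGTCATGACCT) was found in 0.961% against 0.587%, and in 0.847% of all shared summits. The interval of DR1 lay above those of every other spacing. The interval of DR5 at summits lay above that of its flanks, and that of DR4 overlapped its flanks narrowly.

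Within the 68 matches, some positions of the consensus were kept more than others. The last A of the first hexamer (position 6) was present in 97.1% and the G at position 2 in 94.1%. The T at position 4 was present in 72.1% and the C at position 5 in 73.5%. In the second hexamer the C at position 12 was present in 86.8% and the A at position 13 in 89.7%. The spacer, at which any base was allowed, was A in 44.1% and G in 39.7%. The search rule favours the consensus at every other position, so only the spacer and the bases around the match are free of it.

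Elements of macrophage factors were also more frequent at summits than in flanks. The C/EBP element TTGCNNAA was found in 105 of 937 (11.2%, 9.26 to 13.4) against 4.59% (3.69 to 5.64) of flanks. The PU.1 element AGGAAGTG was found in 52 (5.55%, 4.17 to 7.21) against 1.07% (0.653 to 1.64), the largest ratio at 5.20. RUNX (TGTGGTT) was found in 5.98% (4.55 to 7.69) against 2.03% (1.44 to 2.77), and AP-1 (TGANTCA) in 8.43% (6.73 to 10.4) against 4.06% (3.21 to 5.05). Over all shared summits the shares were 11.0% for C/EBP, 4.62% for PU.1, 5.93% for RUNX and 7.51% for AP-1. No match says only that these letters are not in the window.

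**Figure D4:**
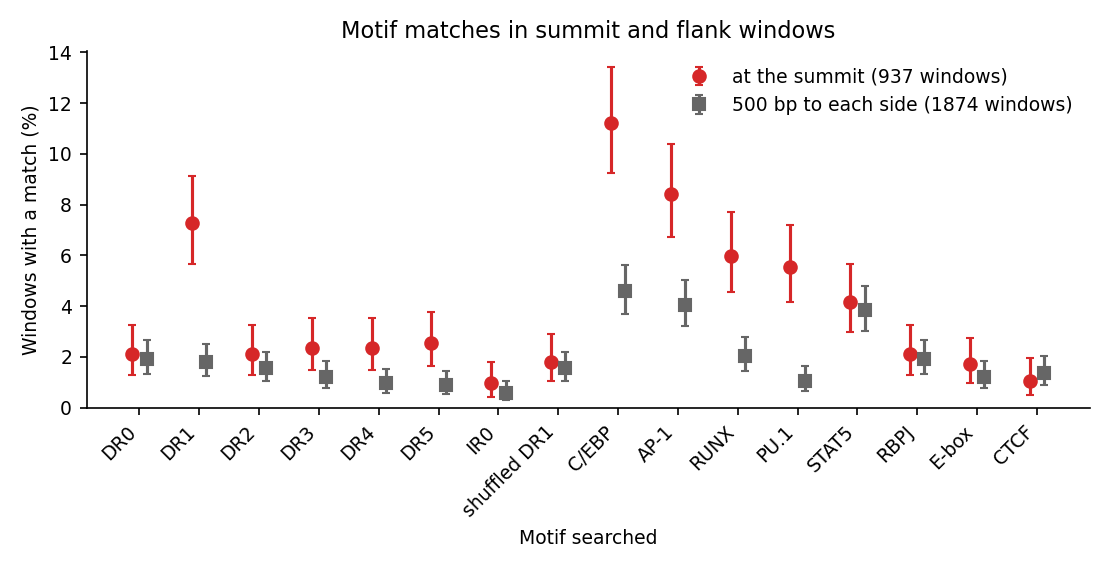
Share of windows with a match (y axis, %) for each element searched (x axis), at the 937 summits (red) and in the 1874 windows 500 bp to either side (grey), with 95% exact binomial intervals. DR1, C/EBP, AP-1, RUNX and PU.1 are well above their flanks, while the scrambled DR1, STAT5, RBPJ and CTCF are not.

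For elements of the niche signals the intervals of summits and flanks overlapped. The study, by a HOMER motif search over its RXR peaks, reported STAT5 and SMAD4 among the factors with enriched motifs. The search here used fixed strings in 101 bp at the summits, so the results are not like for like. Overlapping intervals do not show that these elements were absent. The STAT5 element TTCNNNGAA was found in 4.16% (2.98 to 5.65) of summits and 3.84% (3.02 to 4.81) of flanks, and in 3.77% of all shared summits. The RBPJ element GTGGGAA was found in 2.13% and 1.92%, and in 2.25% of all shared summits. The SMAD palindrome GTCTAGAC was rare, in 3 of 937 summits and 2 of 1874 flanks, and in 7 of all 3423 summits, too few to compare. The E-box CACGTG was found in 1.71% and 1.23% (1.81% of all shared summits), and the CTCF element CCANNAGGTGGC, with 1 mismatch allowed, in 1.07% and 1.39% (0.789% of all shared summits). All searches covered both strands, and apart from the direct and inverted repeats none of these sequences holds the AGGTCA hexamer, which on its own was found in 16.8% (14.4 to 19.3) against 6.94% (5.83 to 8.18), and in 15.2% of all shared summits.

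DR1, C/EBP and PU.1 matches were most frequent in bins centred on the summit or 50 bp from it. In bins of 50 bp, DR1 was found in 4.27% of intergenic regions in the bin at the summit and in 0.961% and 1.28% in the bins at 500 bp upstream and downstream on the plus strand. C/EBP reached 7.04% in the bin at 50 bp and was at 2.56% in both bins at 500 bp. Base composition changed less, with a median GC content of 46.5% at summits and 45.5% in flanks.

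**Figure D5:**
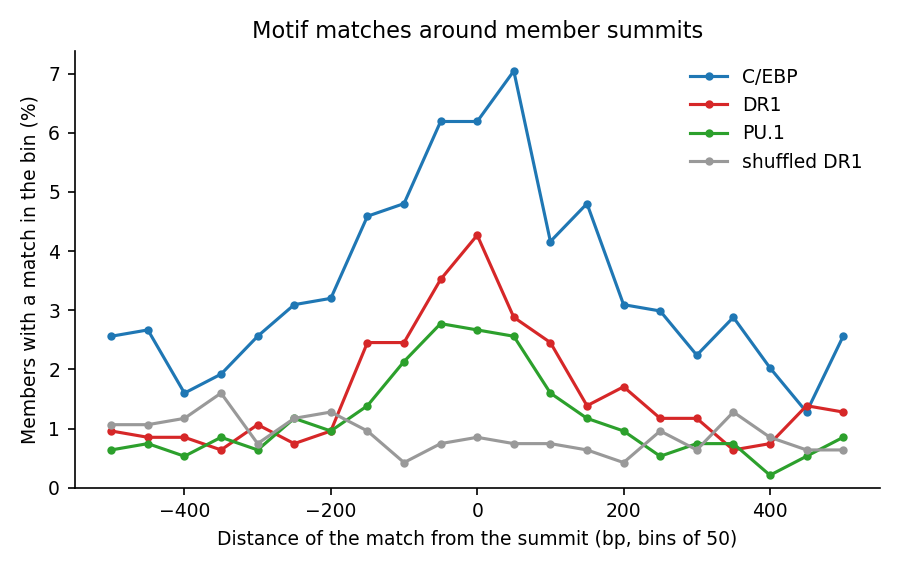
Share of the 937 intergenic regions with a match (y axis, %) in bins of 50 bp by distance from the summit (x axis, bp) for C/EBP, DR1, PU.1 and the scrambled DR1. DR1 peaks at 4.27% in the central bin, and the scrambled consensus shows no such peak.

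Receptor and macrophage elements were also counted together, at the intergenic summits only and not in flanks or over all shared regions. Some DR0 to DR5 or inverted repeat match was found in 158 of 937 (16.9%, 14.5 to 19.4), and a C/EBP, PU.1, RUNX or AP-1 match in 265 (28.3%, 25.4 to 31.3). Both kinds were found in 40 (4.27%) and neither in 554 (59.1%, 55.9 to 62.3). C/EBP matches were found in 4 of 68 windows with DR1 (5.88%, 1.63 to 14.4) and in 101 of 869 without (11.6%, 9.57 to 13.9), with overlapping intervals.

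DR1 matches were more frequent where a KO peak was called. They were found in 12 of 63 intergenic regions with a KO peak (19.0%, 10.2 to 30.9) and in 56 of 874 without (6.41%, 4.88 to 8.24), intervals that do not overlap. Strength in the WT lists moved with both, since DR1 was found in 10.4% (6.96 to 14.7) of the strongest group and 4.68% (2.36 to 8.22) of the weakest. Within the strongest group the counts were 11 of 50 with a KO peak (22.0%, 11.5 to 36.0) and 16 of 210 without (7.62%, 4.42 to 12.1), intervals that overlap narrowly. The C/EBP share was 12.7% (5.65 to 23.5) with a KO peak and 11.1% (9.09 to 13.4) without. These comparisons were chosen after their values were seen, and regions are not replicates, so no test is given. They were not made over all shared regions and are not read as particular to the intergenic regions.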

How the data were processed

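RXRα HT-ChIPmentation of AMs was analysed from 4 peak lists (WT A, WT G, KO A, KO G). The input library served the authors as the control, and its reads were not used here. Per the labels and the study's methods, reads were trimmed with cutadapt and aligned to mm10 with Bowtie2, duplicates and low-quality alignments were removed with SAMtools, and MACS3 called peaks in each library against the input under a q threshold, without pooling replicates. Each deposited peak has a fold enrichment, the ratio of pileup over local background at its summit (1 added to both), with −log10 p and −log10 q for the same place, a score that rescales the −log10 q, and the summit's offset, all as the authors deposited them. The lists hold no read counts per region, so genotypes were compared by peak calls and, where both had a peak, by fold enrichment.

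Regions were merged and classed by their midpoint with GENCODE M21 basic transcripts (81033 transcripts) in Python 3.11.15 (pandas 2.3.3, NumPy 2.4.6, SciPy 1.17.1, pysam 0.24.0). Promoters took precedence over transcript ends (from 100 bp before to 1 kb after), exons and introns. Sequences came from NCBI RefSeq's copy of the mouse genome of the same build. Fragments at summits were solved as whole numbers that give back the −log10 p within 0.005. Shares carry 95% exact binomial intervals, which cover counting error only. The steps were tested on simulated data.

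The members and gene lists were chosen with earlier results of these data known. Named regions were the 10 strongest by rank sum in the WT lists, those with a peak in both KO lists (the 10 highest in full), the 8 genes with the most regions (and Retreg1, tied with the last of them), up to 4 genes per list, 8 of the regions with the fewest DR1 mismatches (ties by rank sum, none of chromosome 18, 1 not reported here), and 3 on each side of the distance limit. DR1 regions of list genes, Gk and the comparison of DR1 with KO peaks were added after their values were seen. Genotypes were compared by an exact permutation test over libraries. Alternatives varied the overlap, the annotated point, the annotation, the distance limit, the q threshold, list length, libraries, window, summit and mismatches.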

Additional observations from a re-analysis of the deposited data

How the results depend on the processing

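Of 65 alternative values of shares, distances and counts, 49 stayed within the 95% interval of the value (for counts, within 1.5 times) and 16 moved. The 10 alternatives of the ratio of WT to KO peaks kept its direction, and some moved it by over 1.5 times. Asking that WT A and WT G peaks overlap by at least 50% of both left 454 intergenic regions near 381 genes, with a KO peak in 9.03%, a C/EBP match in 14.1% and a median distance of 21.9 kb. A limit of 50 kb lowered the median distance to 13.9 kb by construction. Leaving out a WT library widens the set to all peaks of the other. The number of regions was then 1291 to 2366, the share with a KO peak 2.83% to 5.11%, with DR1 4.23% to 6.43% and with C/EBP 9.26% to 12.6%, and the genes 793 to 1186. Without KO replicate G, the KO share was 2.03%, and without KO replicate A it was 6.40%. Windows of 100 bp on each side raised the DR1 share to 12.4% (flanks 3.74%) and the C/EBP share to 21.2% (flanks 9.07%). At most 1 mismatch left DR1 in 1.17% (flanks 0.213%). The scale of the DR1 share thus depends on the window and mismatches, while summits exceeded flanks under each of these settings. With all GENCODE transcripts 894 regions were intergenic, and 880 of the 937 remained. With RefSeq transcripts, added after seeing the data, 831 regions were intergenic, and 723 of the 937 remained. Leaving out the 6 regions of high local background, also added then, gave a KO share of 6.66%. The ratio of WT to KO intergenic peaks was 26.5 to 91.4 when each library was left out in turn. Treating the letters A and G as paired (replicate block), it was 64.55 within A and 34.3 within G, with a geometric mean of 47.0. The labels do not say that the letters mark shared animals or days. Of the 10 strongest regions, 7 to 10 remained intergenic members under the alternatives that change the set of regions. The weakest peaks rested on 10 (A) and 5 (G) fragments in WT and 10 (A) and 8 (G) in KO, and the part of depth in the KO calls was not tested.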

Other observations

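Of the shared intergenic regions beyond the 100 kb limit, only the 3 nearest to it are described above. Of these 141 regions, 10 had a KO peak (7.09%, 95% exact binomial interval 3.45 to 12.7), beside 6.72% of those within 100 kb. Of the WT A peaks in this far sequence, 79.2% (72.8 to 84.6) overlapped a WT G peak. In the other direction 50.9% (44.9 to 56.8) of the WT G peaks there overlapped a WT A peak, against 40.8% (38.8 to 42.8) within 100 kb, 36.6% (35.2 to 37.9) of intronic and 24.6% (22.5 to 26.9) of promoter peaks. These are shares within 1 library pair, with no test over samples. The summit windows of promoter regions held a median of 2 CpG and those of intergenic regions within 100 kb a median of 1, and the part of CpG content in these shares was not tested.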
